A study of Homo sapiens with 10 samples.

Results

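NF-κB is a family of dimeric transcription factors, and the 10 genes described here encode its 5 subunits (NFKB1, NFKB2, REL, RELA and RELB) and 5 proteins that bind or restrain it (NFKBIA, NFKBIE, NFKBIZ, TNFAIP3 and BCL3). They were chosen by gene symbol among the protein-coding rows of the deposited tables, 10 of 60603 genes listed, and each symbol matched 1 row. The RNA came from NB4, an acute promyelocytic leukemia cell line, by mRNA-seq in 2 experiments with 10 libraries in 5 conditions of 2 replicates each. In the GSE1 knockdown, lentiviral pLKO.1 puro was used empty (EV) or with the hairpin shA1 or shB2 against GSE1, and cells were taken at 48 h after transduction. In the LSD1 inhibition, NB4 cells received DMSO or 2 µM of the LSD1 inhibitor MC2580, which the sample titles spell MC280, for 24 h.

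In resting cells, NF-κB dimers are held in the cytoplasm by the IκB proteins. A stimulus activates the IκB kinase, the inhibitor is marked for degradation, and the dimer enters the nucleus. Several of the genes it then turns on encode its own inhibitors and precursors, and this feedback ends the response. In myeloid cells the pathway is known for the induction of cytokines, adhesion molecules and survival genes.

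Each table gives 1 value per gene that is not a comparison, the base mean, for which the authors scaled the counts by size factors and averaged them across the libraries of a fit. The knockdown table prints it once under the label of each hairpin, and the columns hold the same value for all 60603 genes, 33416 of them above 0, so 1 of them was used and taken as a mean over a fit that the hairpins share. The tables do not list which libraries entered a mean (the experiments hold 6 and 4). The base mean was taken to mix control and treated libraries. As 1 pooled value per gene it has no replicate spread, no effect of a hairpin or of MC2580 can be read from it, and no test was made. The depth of each library is unknown here, and the values of all listed genes added up to 40543100 in the knockdown table and 41201100 in the inhibition table. The base mean of GSE1 was 2963 and 4441 and that of KDM1A, which encodes LSD1, was 7648 and 6285. Pooled values of this kind do not check either perturbation. Among the promyelocyte markers, MPO reached 506765 and 824818, and 6 of 7 reached 10 in each table, whereas ELANE, the neutrophil elastase gene, was at 1.10 and 3.87. The share of all protein-coding genes that reached 10 was not worked out, so this count does not set the markers apart. The markers of T cells, B cells and erythroid, epithelial and fibroblast cells summed to between 15.1 and 1021 per list, and CD3D (866 and 869) and EPCAM (432 and 403) had the highest base means among them.

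Levels of different genes were compared per length, as the base mean per kb of merged exons, the bases covered by any exon of a gene in GENCODE release 44. On this scale RELA and NFKBIA had the highest levels of the 10 genes in the knockdown table, 762 and 761 per kb. In the inhibition table NFKBIA had 709, NFKBIE 636 and RELA 617 per kb. REL had the lowest level in both tables on this scale, 34.2 and 18.4 per kb. The median of the 10 genes was 178 per kb in the knockdown table and 161 in the inhibition table, beside 75.2 and 71.9 over the 17298 and 17050 protein-coding genes above 0 with a length.

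**Figure D1:**
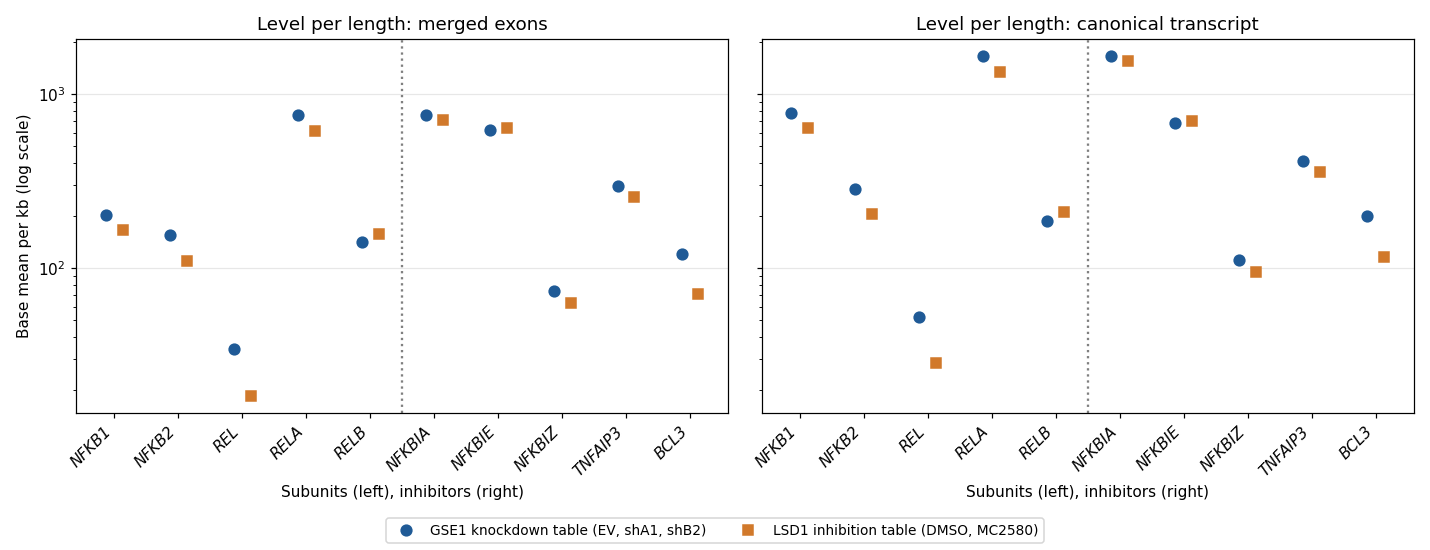
Base mean per kb (log axis) of the 5 subunit genes and the 5 inhibitor genes, over merged exons on the left and over the canonical transcript on the right, with circles for the GSE1 knockdown table and squares for the LSD1 inhibition table. Each point is 1 pooled value of the authors with no error bar. RELA and NFKBIA lie highest and REL lowest on the canonical scale in both tables.

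Of the 10 genes, 3 (RELA, NFKBIA and NFKBIE) were among the 25% of expressed protein-coding genes with the highest level per length, in each table. Counted against the median gene, 8 were above it in the knockdown table, with NFKBIZ and REL below. For the inhibition table this count was 7, with BCL3 (50.3% of genes higher) also just below. REL had 57.7% of genes above it in the knockdown table and 62.0% in the inhibition table. The median gene was taken over all genes above 0, and these counts were not repeated with a floor on the base mean. Ranked by base mean, a floor of 10 moved NFKB2 from 40.1% to 55.1% of genes higher in the knockdown table. It also moved REL from 45.8% to 63.0%, RELB from 49.7% to 68.4% and NFKBIZ from 49.4% to 67.9% there. In the inhibition table it moved NFKB2 from 44.6% to 60.6% and RELB from 47.9% to 65.1%.

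**Figure D2:**
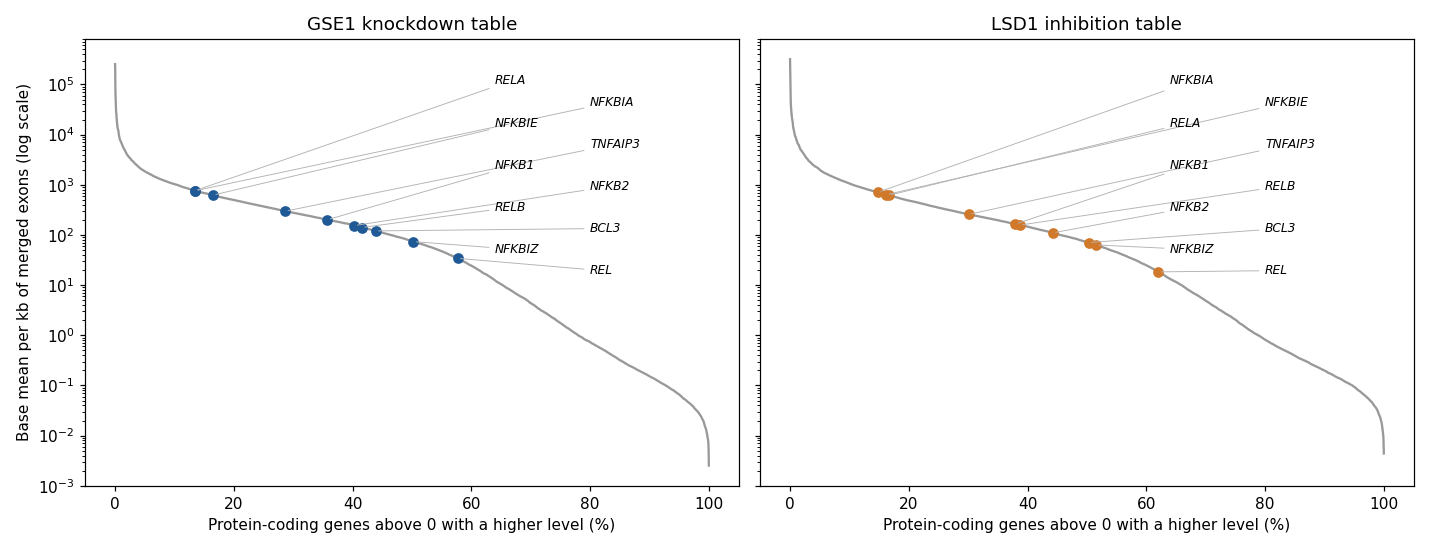
Base mean per kb of merged exons (log axis) against the share of expressed protein-coding genes with a higher level, for the GSE1 knockdown table (left) and the LSD1 inhibition table (right). The grey line is all such genes and the points are the 10 NF-κB genes, which run from 13.4% to 57.7% on the left and from 14.8% to 62.0% on the right.

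RELA (ENSG00000173039.19, chromosome 11, 65653599 to 65663090, minus strand, GRCh38) encodes p65, the subunit whose transactivation domain drives most canonical NF-κB responses. Its base mean was 4158 in the knockdown table and 3368 in the inhibition table, the highest of the 10 genes in each. Per kb of merged exons RELA made up 59.0% of the sum over the 5 subunits in the knockdown table and 57.8% in the inhibition table. It exceeded REL 22.3 times and 33.6 times, RELB 5.41 times and 3.92 times, and NFKB1 3.79 times and 3.75 times in these tables. These folds depend on the length: RELA over REL was 7.98 and 12.0 on coding length and 31.3 and 47.2 on the canonical transcript, RELA over RELB was 10.4 and 7.51 on coding length and 8.84 and 6.41 on the canonical transcript, and RELA over NFKB1 was 2.34 and 2.31 on coding length and 2.12 and 2.10 on the canonical transcript. RELA was the highest subunit on each of these lengths.

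NFKB1 (ENSG00000109320.13, chromosome 4, 102501330 to 102617302, plus strand) encodes p105, the precursor of the DNA-binding subunit p50. Its base mean was 3156 in the knockdown table and 2580 in the inhibition table. Per kb this was 201 and 165, or 15.6% and 15.4% of the subunit sum. Among the subunits, NFKB1 moved most between merged exons and the canonical transcript, as its merged exons cover 15679 bases over 25 annotated transcripts and its canonical transcript has 4055 bases in 24 exons. On the canonical transcript its level was 778 and 636 per kb, and its share of the subunit sum was 26.3% in both tables.

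NFKB2 (ENSG00000077150.20, chromosome 10, 102394110 to 102402524, plus strand) encodes p100, which is processed to p52 in the non-canonical pathway, and RELB (ENSG00000104856.14, chromosome 19, 45001461 to 45038192, plus strand) encodes the partner of p52. NFKB2 had a base mean of 860 in the knockdown table and 615 in the inhibition table. RELB had 422 and 471, so its base mean was the larger in the inhibition table. Per kb of merged exons NFKB2 was 1.09 times RELB in the knockdown table and 0.70 times RELB in the inhibition table. With no spread over libraries, neither order can be told from error.

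REL (ENSG00000162924.14, chromosome 2, 60881491 to 60931612, plus strand) encodes c-Rel, a subunit best known from lymphocytes. Its base mean was 586 in the knockdown table and 315 in the inhibition table. Per kb it made up 2.65% and 1.72% of the subunit sum, and on the canonical transcript of 11108 bases 1.78% and 1.17%. Its coding part is only 1857 bases, and over that length its level was 315 and 170 per kb, which placed it above RELB, BCL3 and NFKBIZ in the knockdown table and above BCL3 alone in the inhibition table. Of its 17129 merged exon bases, 33.3% are also exons of a lncRNA on the same strand (ENSG00000267520), which had base means of 170 and 178, so the reads of these genes may have been shared between them.

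Among the inhibitors, NFKBIA (ENSG00000100906.10, chromosome 14, 35401079 to 35404749, minus strand) encodes IκBα, the classical inhibitor that NF-κB itself induces. Its base mean was 2582 in the knockdown table and 2408 in the inhibition table. RELA over NFKBIA per kb was 1.00 in the first and 0.87 in the second. NFKBIE (ENSG00000146232.16, chromosome 6, 44258166 to 44265788, minus strand) encodes IκBε, a further cytoplasmic inhibitor, and had a base mean of 1604 and 1642. NFKBIA and NFKBIE together made up 73.7% and 77.5% of the inhibitor sum per kb.

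TNFAIP3 (ENSG00000118503.15, chromosome 6, 137867214 to 137883314, plus strand) encodes A20, a ubiquitin-editing enzyme that restrains signaling above the IκB kinase. It had a base mean of 1919 in the knockdown table and 1659 in the inhibition table, or 298 and 258 per kb. NFKBIZ (ENSG00000144802.11, chromosome 3, 101827991 to 101861022, plus strand) encodes IκBζ and BCL3 (ENSG00000069399.15, chromosome 19, 44747705 to 44760044, plus strand) encodes a further atypical nuclear IκB, and both proteins act on p50 or p52 dimers in the nucleus. NFKBIZ and BCL3 were counted with the inhibitors by the choice of members, and whether they restrain NF-κB in these cells was not tested. NFKBIZ had a base mean of 436 and 374, and 3.94% and 3.64% of the inhibitor sum per kb. BCL3 had a base mean of 373 and 218, and 6.43% and 4.06% of that sum. NFKBIA and NFKBIE, which encode the cytoplasmic inhibitors, stood above NFKBIZ and BCL3 on every length used. NFKBIA was 10.3 times and 11.2 times NFKBIZ on merged exons and 14.9 times and 16.2 times on the canonical transcript.

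Exon overlap with other genes was small outside REL. It covered 3.29% of the exons of NFKBIZ (194 bases shared with NXPE3), 2.10% of BCL3 (65 bases of a microRNA gene), 1.89% of RELA (103 bases of RELA-DT) and 1.47% of TNFAIP3 (95 bases of WAKMAR2), and 0 bases of the other 5 genes. RELA-DT and WAKMAR2 lie on the opposite strand, and whether the reads kept the strand was not examined. NXPE3 lies on the strand of NFKBIZ and had base means of 479 in the knockdown table and 276 in the inhibition table.

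The base means of the tables were set side by side, although the tables were normalized separately and hold different cultures, times and treatments, which cannot be told apart. Of the 10 genes, 2 had a larger base mean in the inhibition table, RELB at 1.12 times and NFKBIE at 1.02 times the knockdown value. The other 8 ran from 0.93 for NFKBIA and 0.86 for TNFAIP3 and NFKBIZ, through 0.82 for NFKB1, 0.81 for RELA and 0.71 for NFKB2, to 0.59 for BCL3 and 0.54 for REL. Over the 10916 protein-coding genes that reached 50 in each table, the median ratio was 0.95, and 90% of ratios lay between 0.55 (the 5th percentile) and 1.55 (the 95th percentile). REL was the 1 member below that range, with 95.5% of genes above it, and BCL3 had 93.1% above it. Of the same genes, 29.3% had a larger ratio than RELB and 40.5% a larger ratio than NFKBIE. A ratio above 1 was therefore not particular to these 2 members.

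**Figure D3:**
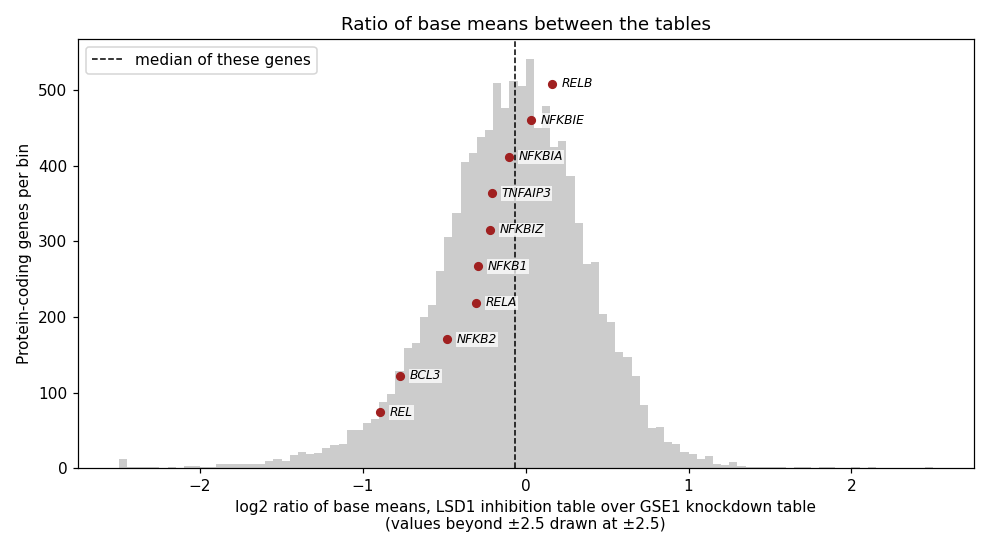
Histogram of the log2 ratio of base means, LSD1 inhibition table over GSE1 knockdown table, over 10916 protein-coding genes, with the median as a dashed line. The dots place the 10 NF-κB genes along the x axis in order of their ratio, and their height has no meaning. RELB and NFKBIE lie to the right of 0 and REL lies farthest to the left.

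The genes that act on these members were described by lists drawn up by role, with levels per kb of merged exons. All 14 genes of the kinase complex and its adaptors reached a base mean of 10 in both tables, with a median of 250 per kb in the knockdown table and 196 in the inhibition table, from TRAF6, an adaptor ubiquitin ligase (53.4 and 50.4), to IKBKE, an IκB kinase-related kinase (1002 and 867). All 11 genes of linear ubiquitin, the deubiquitinases and their partners did too, with medians of 270 and 283 per kb, from BIRC3 (11.6 and 6.69) to TNIP2, a partner of A20 (1251 and 1116). The 5 genes for the ubiquitin ligase that degrades the inhibitors had medians of 470 and 292 per kb, from its substrate receptor BTRC (202 and 133) to its scaffold CUL1 (1885 and 1390). The 4 other inhibitor genes had medians of 117 and 154 per kb, with COMMD1 highest (612 and 586) and NFKBID (94.2) and NFKBIL1 (112) lowest in the respective tables.

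The 14 known targets with a length among the 15 listed included genes at or near 0. A base mean of 10 was reached by 12 of them in the knockdown table and 9 in the inhibition table, and the medians were 42.4 and 20.1 per kb. The share of all protein-coding genes that reached 10 was not worked out, so these counts do not set the targets or the other lists apart. ICAM1, an adhesion molecule, was highest in the knockdown table at 1303 per kb and GADD45B, a stress-response gene, in the inhibition table at 586 per kb. IL6, a cytokine, was listed at 0 in both tables. The remaining target, SOD2, could not be matched to a length.

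The promoter windows in RefSeq (GRCh38.p14), 250 bases before to 50 after an annotated start, were searched on both strands for the κB consensus, the DNA motif of NF-κB dimers. Windows were found for 8 of the 10 genes (not RELB and NFKBIE), 13 windows in all, and 9 of the windows and 7 of the genes held a match. Of all 35116 windows 4.35% held one, and of the 27305 genes with a window 5.28% did. Of the 22114 genes with 1 window 4.27% did. The members were chosen as NF-κB subunits and feedback inhibitors, so their share is a description and not a test. Windows of the members ran from 51.3% to 80% GC, beside a median of 58.7% over all windows. Shares were not compared at equal GC. RELA, with 2 windows, was the 1 member without a match. The stretches below show 1 window with a match for each of the 7 members that held one, the first in order of window number, on the strand of the gene, 5′ to 3′, with every base inside a match in capitals.
NFKB1 (chr4:102501280-102501349): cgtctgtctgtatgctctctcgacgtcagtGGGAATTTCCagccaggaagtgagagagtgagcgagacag
NFKB2 (chr10:102394441-102394539): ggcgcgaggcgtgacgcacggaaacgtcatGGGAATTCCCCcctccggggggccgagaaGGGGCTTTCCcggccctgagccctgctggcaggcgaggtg
REL (chr2:60881497-60881567): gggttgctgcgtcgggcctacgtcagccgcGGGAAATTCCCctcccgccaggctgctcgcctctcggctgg
NFKBIA (chr14:35404791-35404860): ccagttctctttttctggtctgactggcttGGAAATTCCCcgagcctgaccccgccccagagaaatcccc
NFKBIZ (chr3:101827740-101827806): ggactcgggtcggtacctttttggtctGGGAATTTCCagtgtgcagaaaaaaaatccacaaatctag
TNFAIP3 (chr6:137867162-137867243): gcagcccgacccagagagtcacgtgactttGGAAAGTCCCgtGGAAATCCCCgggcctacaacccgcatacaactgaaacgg
BCL3 (chr19:44748680-44748749): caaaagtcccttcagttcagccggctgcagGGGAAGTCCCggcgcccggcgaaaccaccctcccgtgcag

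Positions were counted from the RefSeq start of each window, with negative positions before it. This start can differ from the gene start given above. In REL, NFKB2 and BCL3 the printed stretches lie after that gene start (60881491, 102394110 and 44747705). The match of NFKB1 lay at -49 to -40, those of REL, which overlap, between -47 and -37, and that of NFKBIA at -81 to -72. TNFAIP3 had matches at -67 to -58 and -55 to -46, both on the opposite strand. The match of BCL3 lay after the start, at 2 to 11, on the opposite strand. These 2 stretches of TNFAIP3 lay in its 1 window. NFKB2, with 3 windows the most of any member, had 4 separate stretches over 2 of them, also the most. Those printed, of its second window, lay between -107 and -97 and at -78 to -69. Those of its last window, at -176 to -167 and -21 to -12, are not printed. NFKBIZ had a match at -223 to -214 in its first window and, not printed, at -239 to -230 in its second. In NFKB1, REL, NFKBIA and NFKBIZ the same decamer, GGGAATTTCC, was matched on one strand or the other. A match is a letter pattern and not a measured binding site. In the lists by role, 5 of 10 genes of the ubiquitin list, 2 of 4 other inhibitor genes, 2 of 11 targets, 1 of 13 kinase complex genes and 0 of 4 genes of the degradation list with a window held a match.

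**Figure D4:**
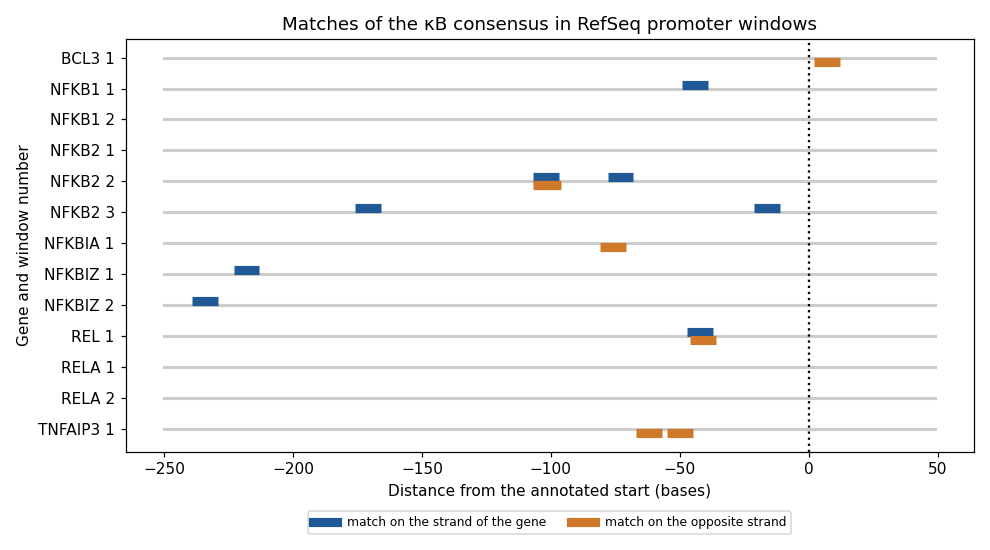
Position of the κB consensus matches (bars) along 13 RefSeq promoter windows of 8 genes, against the distance in bases from the annotated start, with the strand of the match in color. Of the windows, 9 of 13 hold a match.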

How the data were processed

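RNA was sequenced from 10 NB4 libraries in 2 experiments. The authors mapped TruSeq reads to hg38 with STAR 2.7 and quantified genes with RSEM, per the submitters' processing notes, and fitted DESeq2. RSEM and DESeq2 versions and the annotation release are not given in the sources used here. The deposited signal values used here are base means, counts divided by size factors that the authors averaged over the libraries of a fit. The knockdown table repeats this column under each hairpin's label with identical values, and which libraries entered it is not given in the sources used here. The other deposited columns hold the authors' own comparisons (fold changes, errors, statistics and p-values) and were not used. No column holds values per library, so the planned count test between conditions could not be run, and depth, replicate error and replicate identity were not examined.

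The members and gene lists were chosen with earlier results of these data known, and the motif search and the canonical transcript length were added after the base means were seen. All members are named, and each role list is given by its highest and lowest gene per length. Identifiers were matched without version to GENCODE release 44 on GRCh38 (60261 of 60558). Lengths were merged exons, with the coding length taken from GENCODE, as no RefSeq protein lengths were used here. The κB search was tested on simulated windows of A and T bases with a planted match, which checks only that planted matches are found. The simulated windows cannot measure how often matches arise in promoter sequence. Python 3.11.15 and pandas 2.3.3 were used.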

Additional observations from a re-analysis of the deposited data

How the results depend on the processing

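No paired analysis was possible because the tables hold no value per library, and for the same reason no replicate could be left out and no count test or other normalization of counts was run. By base mean, which is not per length, 3 of the 10 genes were in the upper 25% of expressed protein-coding genes in each table (RELA, NFKB1 and NFKBIA, whereas per length NFKBIE took the place of NFKB1). Ranked among all gene types, 7 were in the knockdown table and 6 in the inhibition table, and with a base mean of at least 10 required, 2 and 1 were. Adding low genes to a ranking moves every member up by construction. The order per length depended on the length. Of 10 places, coding length kept 2 in the knockdown table and 3 in the inhibition table, the longest transcript kept 6 and 5, and the canonical transcript, added after the data were seen, kept 3 and 6. Scaling by the sum of base means or by the median ratio left 2 genes, RELB and NFKBIE, larger in the inhibition table. A value was taken as moved when it changed by over 1.5 times, since no replicate spread exists. Depth per library is unknown, so how far it limits low values, such as IL6 listed at 0 and the counts of targets that reached a base mean of 10, was not tested.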
